A study of Mus musculus with 78 samples.

Results

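Esm1, Kcne3, Fam167b, Tmem255a, Ushbp1, Sox11 and Nts are 7 mouse genes whose signal was high at skin sites labelled day 5 in the Ad-VEGF-A164 angiogenesis model. They were chosen by their measured signal at the untreated day 5 site set against control flank, and every probe set carrying 1 of these symbols alone was taken: 7 of 7 genes were found, with 15 probe sets, among 18194 genes and 34958 probe sets with a single symbol. Esm1, Kcne3, Fam167b, Ushbp1 and Nts had 1 probe set each, Tmem255a had 4 and Sox11 had 6. A probe set was tested when its signal was above 331.2 on at least 6 of the 78 arrays, and 14 of the 15 passed. Tmem255a 1437137_at did not pass, and Sox11 1431225_at passed with exactly 6 arrays, only 1 of them outside the untreated day 5 site. The counts over 6 Sox11 probe sets below include 1431225_at. That probe set passed mainly through a group that chose the genes, so it adds no separate support. Values below are log2(signal + 16) of each gene's brightest probe set unless another is named: 1449280_at for Esm1, 1418499_a_at for Kcne3, 1455587_at for Fam167b, 1436948_a_at for Tmem255a, 1451500_at for Ushbp1, 1453125_at for Sox11 and 1422860_at for Nts. Probe sets differ in how brightly they hybridise, so levels were compared between groups and not between genes.

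In this model an adenovirus carrying the VEGF-A164 isoform makes the skin produce the growth factor locally. The flank tissue came from female athymic nude mice (Foxn1nu, which lack a thymus) aged 4 to 6 weeks, and the ears of the same mice were also injected. The groups were G6 (10 mg per kg) and DC101 (20 mg per kg) at days 5, 20 and 60, untreated virus-injected sites at the same days, and control flank at day 0. Each held 8 arrays, except DC101 at day 60 with 6. DC101 is a rat antibody to mouse VEGFR2, and the study's text calls both agents antibodies to VEGF receptors without naming the target of G6 on its own. The antibody doses differed, no group received an empty virus, and the sources used here do not say whether a day counts to treatment or to harvest. A minimum of 5 animals a group is stated and no label says which animal an array came from. Where 2 arrays came from 1 animal, the p-values below are too small.

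VEGF-A acts on endothelial cells through VEGFR2, and sprouting capillaries are led by tip cells, which respond most strongly to it. Esm1 (endocan) is a secreted endothelial proteoglycan and an established marker of tip cells. Kcne3 is an accessory subunit of voltage-gated potassium channels, which pairs with the pore subunit Kcnq1. Nts encodes the precursor of the peptide neurotensin, and Sox11 is a SoxC transcription factor best known from neuronal development. Ushbp1 is named for its binding to the Usher syndrome protein harmonin, Tmem255a encodes a transmembrane protein, and little is established about the function of Fam167b.

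The rise that chose the genes is given as a description. At the untreated day 5 site the mean differences from control were 6.16 for Fam167b, 6.13 for Kcne3, 5.97 for Esm1, 4.97 for Nts, 4.63 for Tmem255a, 4.34 for Sox11 and 2.83 for Ushbp1 on the log2 scale. Every untreated day 5 array lay above every control array for all 7 genes, and the same held for 11.8% of the 26696 probe sets tested. Among 14718 genes, 6 of the 7 ranked between 1 and 8 by this difference. The genes interleaved with them were Mmp13 at rank 5 (4.95), Trem2 at rank 7 (4.52) and, just below Sox11, Ly9 at rank 9 (4.34). Ushbp1 ranked 91, between Slc14a1 (2.85) and Lst1 (2.81), so 84 genes that were not chosen had a larger difference. Ushbp1 had a control level of 8.44 ± 0.53 (SD, n = 8). For Kcne3, Tmem255a, Fam167b, Sox11 and Nts all 8 control arrays read below the signal used for filtering, so their differences depend on dim values. Set against that signal, the untreated day 5 mean was at least 31.4-fold higher for Kcne3, 16.35-fold for Tmem255a, 9.35-fold for Fam167b, 7.91-fold for Sox11 and 4.71-fold for Nts.

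The plot of all arrays shows how the 7 genes then parted by treatment and day.

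**Figure D1:**
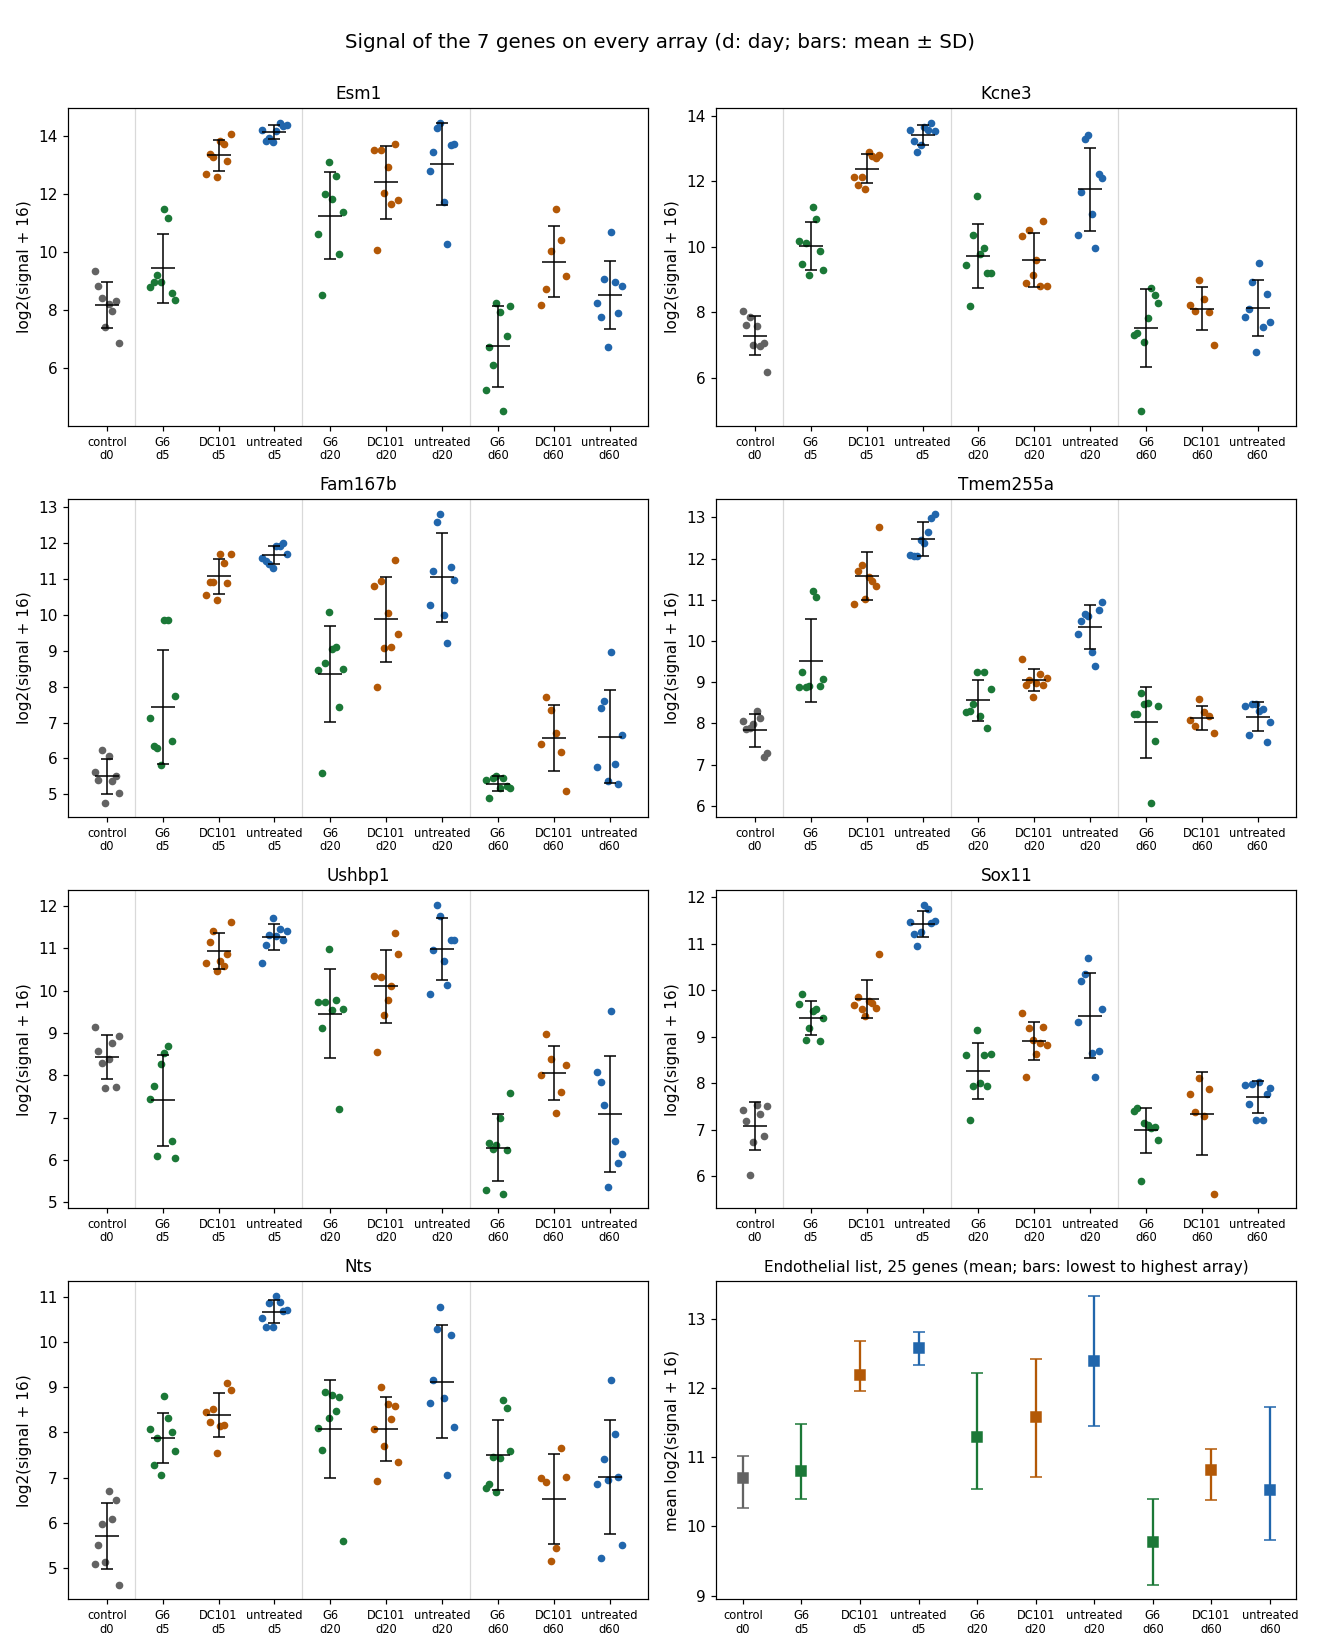
Each point is 1 array (y axis, log2(signal + 16)) in 1 of the 10 groups (x axis), with the mean and SD; the last panel gives the mean of 25 endothelial genes. Esm1, Fam167b and Ushbp1 with G6 at day 5 sit far below DC101 at day 5, while Sox11 and Nts lie close together in those 2 groups.

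At day 5, sites treated with G6 and with DC101 differed in 5 of the 7 genes, all lower with G6. Neither group was used to choose the genes. Lower calls made up 8.20% of all probe sets tested (limma, adjusted p under 0.05). The largest differences were in Esm1, Fam167b and Ushbp1, whose G6 arrays were all below their DC101 arrays. In a bulk sample like these, fewer cells of a type and less RNA per cell cannot be told apart.

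Esm1 had a lowest, median and highest value of 8.33, 8.97 and 11.49 with G6, against 12.59, 13.34 and 14.09 with DC101. The 2 groups did not overlap, a separation seen in the lower direction in 1.65% of probe sets, and the mean difference was -3.91 ± 0.55 (SE; adjusted p = 2.8e-07). Fam167b ran through 5.82, 6.81 and 9.84 with G6, against 10.42, 10.92 and 11.70 with DC101, a difference of -3.63 ± 0.50 (adjusted p = 1.4e-07). Ushbp1 ran through 6.06, 7.59 and 8.68 with G6, against 10.46, 10.78 and 11.64 with DC101. Its difference of -3.53 ± 0.41 (adjusted p = 2.8e-09) also came with no overlap.

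Kcne3 had a lowest, median and highest value of 9.13, 9.98 and 11.20 with G6, against 11.76, 12.42 and 12.90 with DC101. These ranges were again apart, by a mean of -2.37 ± 0.41 (adjusted p = 1.9e-05). Kcnq1, its pore-forming partner, was lower with G6 as well, with a difference of -2.57 ± 0.37 (adjusted p = 3.8e-07). Kcnq1 belongs to a list of 14 measured partners and relatives of the 7 genes, of which 3 were lower and none higher, with a median of -0.13. Tmem255a ran through 8.88, 8.99 and 11.22 with G6, against 10.91, 11.51 and 12.76 with DC101, with overlap from 2 G6 arrays. Its difference was -2.05 ± 0.28 (adjusted p = 1.4e-07), and all 3 tested probe sets of the gene were called lower (-2.05 to -1.66).

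Sox11 and Nts did not pass in the same comparison. Sox11 had a lowest, median and highest value of 8.91, 9.48 and 9.92 with G6, against 9.44, 9.70 and 10.77 with DC101. The difference was -0.40 ± 0.27 (adjusted p = 0.35), and of the 6 Sox11 probe sets 1 was called lower (1429051_s_at, -0.74). Nts ran through 7.07, 7.94 and 8.82 with G6, against 7.54, 8.34 and 9.10 with DC101, a difference of -0.51 ± 0.43 (adjusted p = 0.47). It was above the signal used for filtering on 1 of 8 G6 and 4 of 8 DC101 arrays, so most of these values are dim. For both genes the 2 groups overlapped widely, and 7 of 8 G6 arrays lay below the DC101 mean.

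G6 arrays 13 and 14, which have neighbouring running numbers in the titles, stood above the other 6 G6 day 5 arrays for Esm1 (11.49 and 11.16), Fam167b (9.84 and 9.84), Kcne3 (11.20 and 10.86) and Tmem255a (11.22 and 11.06). Without them 5 of the 7 genes were called lower, as with them. For Esm1 and Fam167b the other 6 arrays ran from 8.33 to 9.21 and from 5.82 to 7.74.

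Beside untreated day 5 sites, whose high values chose the genes, the levels are only described. All 7 genes had every G6 day 5 array below every untreated day 5 array, with mean differences from -2.02 (Sox11) to -4.71 (Esm1), against 6.26% of all probe sets. With DC101 only Nts and Sox11 were apart in this way, with mean differences of -2.29 and -1.62, against 2.17% of all probe sets. Ushbp1 differed by -0.33, Fam167b by -0.60 and Esm1 by -0.80 between DC101 and untreated day 5 sites, and their ranges overlapped. At day 5 Sox11 and Nts were thus the 2 genes with the smallest differences between the antibodies and the 2 whose DC101 arrays all lay under the untreated ones. Compared with control flank, G6 day 5 arrays still lay above all control arrays for Kcne3, Sox11, Nts and Tmem255a (4.88% of probe sets did), overlapped them for Esm1 and Fam167b, and overlapped them for Ushbp1, with a mean difference of -1.03.

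A list of 25 endothelial genes moved the same way: 21 of 25 were lower with G6 than with DC101 at day 5, with a median of -1.40 against 0.04 over all genes tested. Per array the mean of the list lay between 10.40 and 11.47 with G6, against 11.95 and 12.67 with DC101. Of 30 tip cell and VEGF response genes, which do not include Esm1, 17 were lower and 1 higher, with a median of -0.83. Vegfa averaged 13.70 ± 0.53 with G6 and 13.73 ± 0.79 with DC101, and its receptor Kdr (VEGFR2) 11.06 ± 0.70 with G6 and 12.61 ± 0.34 with DC101 (SD, n = 8 each). Of 10 pericyte genes 5 were lower, with a median of -0.63, and their part in the result was not tested. None of 10 skeletal muscle, 10 fibroblast, 10 macrophage or 9 keratinocyte genes was called in either direction. The Actb 3'/5' ratio, a sign of RNA length, had a median of 1.76 with G6 and 1.29 with DC101, with overlapping ranges. When this ratio and that of Gapdh entered the fit, 5 of the 7 genes were called lower, as without them.

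To set the genes against the endothelial list, the mean of the 25 genes was subtracted on each array and the fit repeated. Because this shifts every probe set that did not follow the list, 94.8% of all probe sets became higher with G6 and 0.228% lower. Esm1 still differed by -2.51 ± 0.42 (adjusted p = 3.1e-07), Fam167b by -2.24 ± 0.36 and Ushbp1 by -2.13 ± 0.31. Kcne3 differed by -0.98 (adjusted p = 0.00083) and Tmem255a by -0.65 (adjusted p = 0.027), but neither was called when only Pecam1, Cdh5 and Tie1 were subtracted (-0.48 and -0.15). After the subtraction Sox11 was higher with G6 than with DC101 by 0.99 (adjusted p = 0.00022) and Nts by 0.88 (adjusted p = 0.024). Nearly all probe sets took that direction. With the list's median subtracted instead, Nts was not called (0.75, adjusted p = 0.056).

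**Figure D2:**
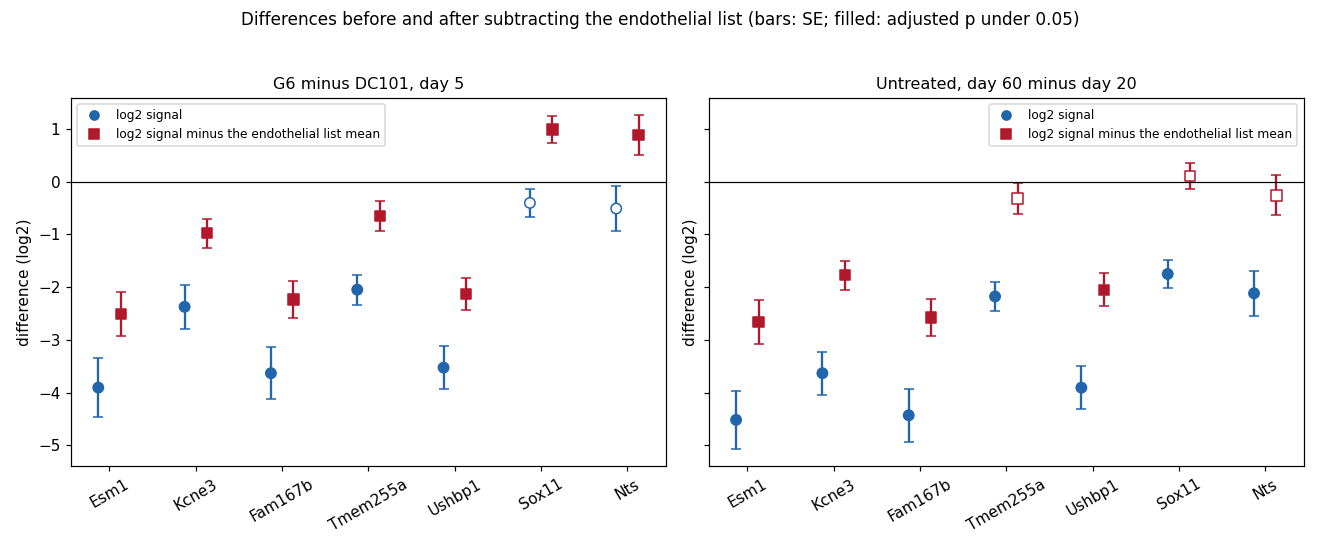
Differences (y axis, log2) of the 7 genes (x axis) between G6 and DC101 at day 5 (left) and between untreated sites at day 60 and day 20 (right), from the signal (circles) and after subtracting the mean of 25 endothelial genes (squares), with SE bars; filled symbols passed an adjusted p of 0.05. Esm1, Fam167b, Kcne3, Ushbp1 and Tmem255a stayed below 0 in both panels after the subtraction. Sox11 lay above 0 in both, and Nts above 0 on the left and at -0.26 on the right. After the subtraction Tmem255a, Nts and Sox11 did not pass in the right panel.

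By day 60 all 7 genes had fallen at untreated sites. Calls in that direction made up 13.2% of probe sets. The mean difference between day 60 and day 20 was -4.52 ± 0.55 for Esm1 (adjusted p = 1.7e-09), -4.43 ± 0.50 for Fam167b (adjusted p = 1.3e-10), -3.91 ± 0.41 for Ushbp1 (adjusted p = 2e-11) and -3.63 ± 0.41 for Kcne3 (adjusted p = 1.5e-10). It was -2.18 ± 0.28 for Tmem255a, -2.12 ± 0.43 for Nts (adjusted p = 0.00011) and -1.75 ± 0.27 for Sox11. The median over the 7 genes was -3.63, against 0.02 over all genes tested.

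Esm1 had a lowest, median and highest value of 6.74, 8.54 and 10.69 at day 60, against 10.27, 13.57 and 14.45 at day 20. Its ranges overlapped through day 60 array 77 and day 20 array 54. Fam167b ran through 5.29, 6.24 and 8.95 at day 60, against 9.20, 11.08 and 12.82 at day 20, with no overlap. Ranges were also apart for Kcne3, Ushbp1, Tmem255a and Sox11, a separation found in the lower direction in 1.80% of probe sets, and overlapped for Nts.

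Of the endothelial list 22 of 25 genes were lower at day 60 than at day 20, none was higher, and the median was -2.17. Tie1, an endothelial receptor tyrosine kinase, differed most among them (-3.35), followed by Egfl7, a secreted endothelial factor (-2.86). Of the tip cell and VEGF response list 24 of 30 were lower and 1 higher, led by the apelin receptor Aplnr (-3.39) and the VEGF receptor Flt1 (-2.60). Pericyte genes, which mark the cells that wrap capillaries, were lower in 9 of 10, and Vegfa itself differed by -2.69 (adjusted p = 1.2e-07), with means of 10.10 ± 0.26 at day 60 and 12.79 ± 1.32 at day 20 (SD, n = 8 each).

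Relative to the endothelial list the 7 genes split. At day 60 against day 20 Esm1 differed by -2.66 ± 0.42 (adjusted p = 2.9e-08), Fam167b by -2.57 ± 0.36, Ushbp1 by -2.05 ± 0.31 and Kcne3 by -1.78 ± 0.28, where 0.378% of all probe sets were called lower. Tmem255a (-0.32, adjusted p = 0.27), Nts (-0.26, adjusted p = 0.50) and Sox11 (0.11, adjusted p = 0.67) were not called, so for them no difference from the mean fall of the list was detected. With only Pecam1, Cdh5 and Tie1 subtracted, Sox11 was called higher, by 0.89 (adjusted p = 0.0066). The place of Sox11 rests on 1 probe set. Before the subtraction its 6 probe sets differed by -2.52 to -0.99, with 5 called lower. At untreated day 60 Sox11 was above the signal used for filtering on 0 of 8 arrays, Nts on 1 and Tmem255a on 2, so larger falls could be hidden. Fam167b and Ushbp1 were above it on 1 array each.

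The day 5 values, used in the choice, add the earlier course as a description. Sox11 and Tmem255a at untreated sites averaged 9.45 and 10.34 at day 20, differences of -1.97 and -2.13 from day 5, and their ranges were apart, as were those of 3.32% of probe sets in that direction. Ushbp1 differed by -0.28, Fam167b by -0.62 and Esm1 by -1.10 between the same days, with overlap. Set beside control, day 60 means differed by 0.33 (Tmem255a) to 1.31 (Nts) in 6 genes and by -1.36 in Ushbp1, and all ranges overlapped.

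At day 20 the untreated arrays were spread out. Esm1 ranged from 10.27 to 14.45, Kcne3 from 9.96 to 13.41 and Nts from 7.07 to 10.79. Arrays 51 and 52 held the highest 2 values for Esm1, Kcne3, Fam167b, Ushbp1, Sox11 and Nts, and array 54 the lowest for every gene but Ushbp1. At untreated day 5 the SD was at most 0.41 for the 7 genes, against 0.53 to 1.42 at untreated day 20.

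With G6 at day 20, 6 of the 7 genes were lower than at untreated sites. Lower calls made up 5.02% of probe sets. The differences were -2.68 ± 0.50 for Fam167b (adjusted p = 0.00028), -2.04 ± 0.41 for Kcne3 (adjusted p = 0.00083), -1.80 ± 0.55 for Esm1 (adjusted p = 0.031), -1.78 ± 0.28 for Tmem255a (adjusted p = 3.7e-05), -1.53 ± 0.41 for Ushbp1 (adjusted p = 0.013) and -1.19 ± 0.27 for Sox11 (adjusted p = 0.0032). Nts differed by -1.05 ± 0.43 (adjusted p = 0.12). The count depended on the untreated arrays: without arrays 51 and 52 only 2 genes were called, Fam167b and Tmem255a, and Esm1 differed by -1.36 (adjusted p = 0.31). With only these 2 groups in the fit 1 gene was called. With neighbouring arrays averaged 4 were called, without Esm1 (adjusted p = 0.12) and Ushbp1 (adjusted p = 0.056), and with the 3'/5' ratios in the fit 5 were, without Esm1 (adjusted p = 0.073).

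Tmem255a had a lowest, median and highest value of 7.89, 8.39 and 9.26 with G6 at day 20, against 9.40, 10.55 and 10.94 at untreated sites. It was the gene whose ranges were apart, a separation seen in the lower direction in 0.101% of probe sets, and its 3 tested probe sets were all called lower (-1.78 to -1.69). Of the 6 Sox11 probe sets 4 were called lower. Of the lists, 20 of 25 endothelial genes and 20 of 30 tip cell and VEGF response genes were lower with G6, with medians of -1.14 and -0.91. Pericyte genes were lower in 8 of 10 and keratinocyte genes higher in 3 of 9 (median 1.09), and their part in the result was not tested. Relative to the endothelial list, where 0.206% of probe sets were called lower and 92.4% higher, Fam167b (-1.58, adjusted p = 0.0001), Kcne3 (-0.94, adjusted p = 0.0016) and Tmem255a (-0.68, adjusted p = 0.022) were lower and the other 4 were not called. Tmem255a was not called with only Pecam1, Cdh5 and Tie1 subtracted (-0.50, adjusted p = 0.16).

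With DC101 at day 20, Kcne3 and Tmem255a were lower than at untreated sites and the other 5 genes were not called. Lower calls made up 4.45% of probe sets. Kcne3 had a lowest, median and highest value of 8.79, 9.36 and 10.77 with DC101, against 9.96, 11.88 and 13.41 at untreated sites, a difference of -2.14 ± 0.41 (adjusted p = 0.00059). Tmem255a differed by -1.30 ± 0.28 (adjusted p = 0.0022), and its 3 tested probe sets were all called. Both calls held without arrays 51 and 52. With the 3'/5' ratios in the limma fit Nts was called lower too (-1.45, adjusted p = 0.045). Esm1 differed by -0.64 ± 0.55 (adjusted p = 0.54), with 5 of 8 DC101 arrays below the untreated mean.

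Kcne3 was also the gene called relative to the endothelial list with DC101 at day 20 (-1.34, adjusted p = 0.0014), where 0.225% of probe sets were called lower. Of that list 13 of 25 genes were lower with DC101, and 13 of 30 tip cell and VEGF response genes, with medians of -0.73 and -0.66. A direct comparison of G6 with DC101 at day 20 called none of the 7 genes lower at an adjusted p under 0.05 in limma, where 0.169% of probe sets were. The differences ran from -1.51 ± 0.50 (Fam167b, adjusted p = 0.13) to 0.10 ± 0.41 (Kcne3, adjusted p = 0.95). Esm1, Fam167b, Ushbp1 and Sox11 were called against untreated sites with G6 and not with DC101, but the antibodies were not shown to differ in them at day 20.

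**Figure D3:**
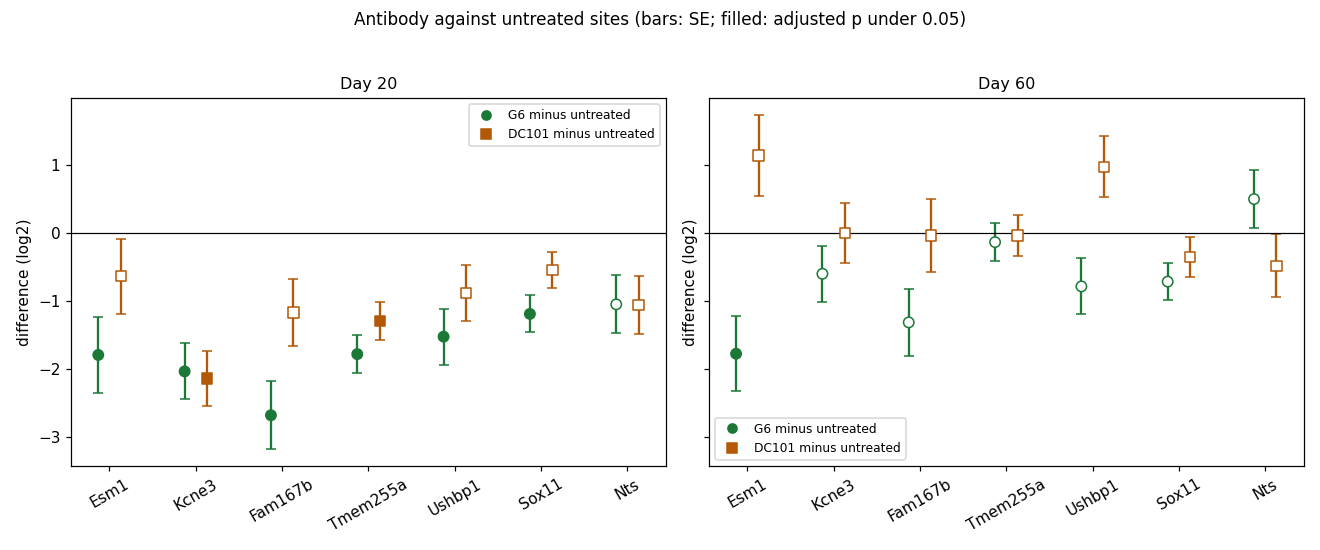
Differences (y axis, log2) of the 7 genes (x axis) between antibody and untreated sites at day 20 (left) and day 60 (right), for G6 (circles) and DC101 (squares), with SE bars; filled symbols passed an adjusted p of 0.05. At day 20 Kcne3 lay at -2.04 with G6 and -2.14 with DC101, and at day 60 Esm1 with G6 alone passed.

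At day 60 Esm1 was the gene called lower with G6 than at untreated sites. Calls in that direction made up 7.29% of probe sets. It had a lowest, median and highest value of 4.51, 6.91 and 8.24 with G6, against 6.74, 8.54 and 10.69 at untreated sites, a difference of -1.78 ± 0.55 (adjusted p = 0.027), and all 8 G6 arrays lay below the signal used for filtering. The call was lost without untreated arrays 77 and 79 (-1.52, adjusted p = 0.08). With the 3'/5' ratios in the fit it was lost too (-1.43, adjusted p = 0.34), and 64 in place of 2809 probe sets were called. Markers of several cell types were lower in the same comparison: 9 of 25 endothelial, 7 of 10 macrophage, 5 of 10 fibroblast and 5 of 8 Schwann and nerve genes. Their part in the result was not tested. Fam167b, at -1.32 ± 0.50 (adjusted p = 0.075), lay between 4.90 and 5.52 on every G6 array. Relative to the endothelial list Esm1 differed by -1.03 (adjusted p = 0.029), where 0.386% of probe sets were called lower, but it was not called with only Pecam1, Cdh5 and Tie1 subtracted (adjusted p = 0.052). Nts differed by 1.25 (adjusted p = 0.0057), the direction called in 67.4% of probe sets.

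With DC101 at day 60 no gene was called against untreated sites in either direction, where 6.87% of probe sets were called lower and 5.53% higher. Esm1 differed by 1.14 ± 0.60 (adjusted p = 0.20) and Ushbp1 by 0.98 ± 0.45 (adjusted p = 0.14), and all 6 DC101 arrays lay above the untreated mean of Ushbp1. The other 5 differences ran from -0.48 (Nts) to -0.0039 (Kcne3). Fam167b was above the signal used for filtering on 0 of 6 DC101 and 1 of 8 untreated arrays, Sox11 on 0 and 0, Ushbp1 on 1 and 1, and Esm1 on 5 and 4. The lack of calls thus does not show that the groups were alike. The Actb 3'/5' ratio ran from 1.17 to 1.56 with DC101 and from 1.58 to 2.57 at untreated sites, with no overlap. Cell cycle genes were lower with DC101 in 7 of 9, and their part was not tested.

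Between the antibodies at day 60, Esm1 (-2.92 ± 0.60, adjusted p = 0.0001) and Ushbp1 (-1.76 ± 0.45, adjusted p = 0.0013) were lower with G6, where 19.8% of probe sets were. Against the filtering signal Esm1 was at least 2.35-fold lower. Ushbp1 was above that signal on 0 of 8 G6 and 1 of 6 DC101 arrays, so its difference lies between dim values and no fold is given. Other features moved with this comparison. The Actb 3'/5' ratio ran from 1.81 to 3.03 with G6 and from 1.17 to 1.56 with DC101, with no overlap, and all 10 skeletal muscle genes, 9 of 10 macrophage genes and 21 of 25 endothelial genes were lower with G6, while all 9 cell cycle genes were higher. With that ratio and the one of Gapdh in the fit neither gene was called (Esm1 -2.51, adjusted p = 0.22, and Ushbp1 -0.68, adjusted p = 0.74), and the count over all probe sets was 0 in place of 10109. Relative to the endothelial list Esm1 differed by -1.89 (adjusted p = 0.00029) and Ushbp1 by -0.73 (adjusted p = 0.042), where 0.798% of probe sets were called lower. Nts was higher by 2.01 (adjusted p = 4.1e-05), Tmem255a by 0.93 and Sox11 by 0.67, the direction called in 76.9% of probe sets. Ushbp1 (adjusted p = 0.092) and Sox11 (adjusted p = 0.058) were not called with only Pecam1, Cdh5 and Tie1 subtracted.

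Within each antibody the genes followed different courses. With G6, Esm1 and Ushbp1 were higher at day 20 than at day 5, by 1.81 ± 0.55 (adjusted p = 0.013) and 2.05 ± 0.41 (adjusted p = 0.00012), where 12.1% of probe sets were. Ushbp1 had a lowest, median and highest value of 7.21, 9.65 and 10.99 at day 20, against 6.06, 7.59 and 8.68 at day 5. Sox11 (-1.14, adjusted p = 0.0012) and Tmem255a (-0.96, adjusted p = 0.0092) were lower at day 20, where 7.87% of probe sets were. Of the 6 Sox11 probe sets 3 were called lower (-1.34 to 0.23), and 2 of the 3 tested for Tmem255a. The 0.23 came from Sox11 1431225_at, which was above the signal used for filtering on 0 of 8 arrays in both groups. Kcne3 and Nts differed by -0.30 and 0.20. Of the endothelial list 8 of 25 genes were higher at day 20 and 0 lower, with a median of 0.37. Pericyte genes were higher in 3 of 10, hair follicle genes higher in 4 of 10 and macrophage genes lower in 5 of 10. None in these 3 lists was called the other way, and their part in the result was not tested. Arrays 13 and 14 bear on this comparison: without them Tmem255a differed by -0.42 (adjusted p = 0.29) and Fam167b was called higher, by 1.72 (adjusted p = 0.0093). With the Actb and Gapdh 3'/5' ratios in the fit neither Sox11 nor Tmem255a was called.

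At day 60 against day 20 with G6, 5 genes were lower, where 12.6% of probe sets were. Esm1 differed by -4.50 ± 0.55 (adjusted p = 1e-08), Ushbp1 by -3.17, Fam167b by -3.06, Kcne3 by -2.20 and Sox11 by -1.28. Of the 6 Sox11 probe sets 3 were called lower (-1.35 to -0.185). Nts (-0.57, adjusted p = 0.37) and Tmem255a (-0.53, adjusted p = 0.18) were not called. Against the filtering signal Esm1 was at least 7.02-fold and Ushbp1 at least 2.03-fold lower. Of the lists, 23 of 25 endothelial and 9 of 10 pericyte genes were lower, and with the 3'/5' ratios in the fit the count over all probe sets was 642 in place of 5224, without Sox11 (adjusted p = 0.059). With Nts, the day 60 values ran from 6.68 to 8.72, and its mean of 7.51 there was the highest of the 3 day 60 groups.

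With DC101, Kcne3 and Tmem255a were lower at day 20 than at day 5, with differences of -2.78 ± 0.41 (adjusted p = 3.2e-07) and -2.53 ± 0.28 (adjusted p = 1.3e-10), with no overlap between the days. Such a separation was seen in the lower direction in 2.11% of probe sets. Sox11 was also lower (-0.90, adjusted p = 0.012), and lower calls made up 9.90% of probe sets. Esm1 (-0.93, adjusted p = 0.25) and Ushbp1 (-0.83, adjusted p = 0.15) were not called, and both still averaged above 10 at day 20, at 12.41 ± 1.26 and 10.10 ± 0.86 (SD, n = 8). All 10 macrophage genes, all 9 cell cycle genes and 12 of 25 endothelial genes were lower at day 20 as well, and their part in the result was not tested. At day 60 against day 20 all 7 genes were lower with DC101, from -0.91 (Tmem255a) to -3.30 (Fam167b), where 6.20% of probe sets were. For Tmem255a 1 of 3 tested probe sets was called, the others differing by -0.27 and -0.33, and for Sox11 2 of 6. Of the endothelial list 14 of 25 genes were lower. When arrays with adjacent running numbers were averaged in pairs 4 of the 7 remained, with Kcne3, Tmem255a and Nts not called.

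Whether an antibody's difference from untreated sites changed between day 20 and day 60 was tested as an interaction. For DC101 it was higher at day 60 than at day 20 for Kcne3 (2.14 ± 0.61, adjusted p = 0.0099), Ushbp1 (1.87 ± 0.61, adjusted p = 0.025) and Tmem255a (1.26 ± 0.41, adjusted p = 0.026), and higher calls made up 9.02% of probe sets. None of the 3 was called without untreated day 20 arrays 51 and 52, where the values were 1.61, 1.56 and 1.17. At day 60 Kcne3 was above the signal used for filtering on 3 of 8 untreated and 1 of 6 DC101 arrays. Tmem255a was above it on 2 and 1, and Ushbp1 on 1 and 1. A lower value with DC101 therefore had little room to show at day 60. The Actb 3'/5' ratio there ran from 1.58 to 2.57 at untreated sites and from 1.17 to 1.56 with DC101. With the 3'/5' ratios in the fit 0 of the 3 were called. The same interaction was called higher for 14 of 25 endothelial genes (median 1.05), 16 of 30 tip cell and VEGF response genes, with 1 lower, and 3 of 10 pericyte genes. For G6 none of the 7 was called at an adjusted p under 0.05 in limma, where 0.0787% of probe sets were called higher, and the largest value was 1.65 for Tmem255a (adjusted p = 0.06).

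Likeness over the 8 group means that were not used to choose the genes is given as a description. The genes compared share the same arrays and scaling. Ushbp1 and Esm1 were most alike among the 7 (Pearson r = 0.99), and Fam167b followed both (0.97 each). Kcne3 and Tmem255a were at 0.96, and Nts with Esm1 at 0.71. The genes most like Esm1 were Podxl, Adgrf5 and Egfl7, those most like Ushbp1 were Pecam1, Egfl7 and Ccm2l, and those most like Fam167b were Pcdh17, Btnl9 and Myct1, all with r between 0.985 and 0.995. Pecam1 encodes the endothelial adhesion molecule CD31. Kcne3 was closest to Fscn1, an actin-bundling protein, then Adam12 and Mcam (r of 0.998, 0.992 and 0.99). Tmem255a was closest to Mest, Tcirg1 and Slc9a5 (0.98 each), Sox11 to Enho, Trpv2 and Plekho1 (0.98, 0.98 and 0.97), and Nts to the endothelial factor Sox7, the Notch ligand Dll1 and Ampd2 (0.97, 0.97 and 0.95).

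The sequence before the transcription start was read for all 7 genes from RefSeq (build GRCm38.p6), as 250 bases before each of 8 listed starts, 2 of them for Kcne3. Those of Esm1, Ushbp1 and Kcne3 are printed since Esm1 and Ushbp1 had the most similar levels and Kcne3 and Ushbp1 share a motif. They are chr13:113209409-113209658 (plus strand) for Esm1, chr8:71395802-71396051 (minus strand) for Ushbp1 and chr7:100176420-100176669 (plus strand) for the first Kcne3 start. Capitals mark AACAGGAA or its reverse complement TTCCTGTT, which joins a forkhead-like stretch to the ETS core GGAA.
Esm1: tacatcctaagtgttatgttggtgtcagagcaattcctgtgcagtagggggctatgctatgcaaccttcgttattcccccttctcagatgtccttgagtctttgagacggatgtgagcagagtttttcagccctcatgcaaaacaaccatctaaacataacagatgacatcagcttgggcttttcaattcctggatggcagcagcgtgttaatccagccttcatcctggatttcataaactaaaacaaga
Ushbp1: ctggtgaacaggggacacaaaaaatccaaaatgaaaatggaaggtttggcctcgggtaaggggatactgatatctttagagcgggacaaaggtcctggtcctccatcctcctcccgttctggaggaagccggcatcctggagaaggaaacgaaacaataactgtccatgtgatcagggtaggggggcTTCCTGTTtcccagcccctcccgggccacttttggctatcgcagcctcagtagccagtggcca
Kcne3: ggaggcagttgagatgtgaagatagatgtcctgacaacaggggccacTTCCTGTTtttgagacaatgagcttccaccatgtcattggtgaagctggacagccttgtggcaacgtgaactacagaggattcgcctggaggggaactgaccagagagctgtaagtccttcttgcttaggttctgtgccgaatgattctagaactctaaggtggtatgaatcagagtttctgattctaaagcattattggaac

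The match began 63 bases before the start in Ushbp1 and 203 in Kcne3, and no other window of the 7 genes held these letters. On both strands, 738 of 32851 windows of the same length held AACAGGAA (2.25%). The shorter core GGAA, which AACAGGAA contains, was in 7 of 8 windows of the 7 genes and in 93.4% of all windows. AGGAAG, which also contains GGAA, was in 5 of 8 and in 29.5%. The core AACAAT, to which SOX factors bind, was in 1 of 8 (Ushbp1) and in 9.42%, and ACGTG, the core of the hypoxia response element, in 2 of 8 (Fam167b and Kcne3) and in 16.6%. The motifs were chosen after the sequences had been seen, and a match is a description of these letters only.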

How the data were processed

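RNA of 78 flank samples was measured on 1 Affymetrix array each. The deposited value is a linear MAS5 signal intensity for each probe set, which the authors made with GCOS 1.3 per the submitters' processing notes; the mean of the middle 96% of values is 1500 on every array. Groups came from the labels. Intensities were taken as log2(signal + 16), so fold changes of dim genes are understated. Probe sets with a single symbol above the 40th percentile of all signals on at least 6 arrays were kept (26696, or 14718 genes). A linear model over all 10 groups was fitted with limma 3.58.1 (R 4.3.3) using eBayes with an intensity trend, with Benjamini-Hochberg adjustment over all 26696 probe sets, a two-sided threshold of 0.05, and no covariate. It was tested on simulated data. Genes are named by their brightest probe set. Named were all 7 genes, those next to them in rank of the day 5 rise, the 3 most similar genes each, Vegfa and its receptors, and the genes of each list with the largest differences past the threshold, with list totals. The genes and lists were chosen with earlier results of these data known. The array number limits the precision. Alternatives are given in the closing section.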

Additional observations from a re-analysis of the deposited data

Results flagged for a closer look

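Among 70 sets of 1 gene in 1 group, 6 held an array far from its neighbours by Dixon's criterion, and chance alone flags about 1 in 20 sets. With G6 at day 60, array 83 was low for Kcne3 (4.97, next 7.09) and for Sox11 (5.89, next 6.79), and array 86 was low for Tmem255a (6.08, next 7.57). With G6 at day 20, array 64 was low for Nts (5.59, next 7.62). With DC101, array 24 was high for Sox11 at day 5 (10.77, next 9.84), and array 94 was low for Sox11 at day 60 (5.63, next 7.30).

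The difference between DC101 and untreated sites was higher at day 60 than at day 20 for Kcne3 (2.14), Ushbp1 (1.87) and Tmem255a (1.26), each past the threshold of an interaction test in limma, and 0 of the 3 were called without untreated day 20 arrays 51 and 52. Of the endothelial list 14 of 25 genes, and of the pericyte list 3 of 10, were called higher in the same test. Most day 60 values of the 3 genes lay below the signal used for filtering. With the 3'/5' ratios in the fit 0 of the 3 were called.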

How the results depend on the processing

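No called value reversed its sign under any alternative. Of 216 counts of genes called under an alternative, 190 stayed within 1.5 times the main count, 18 were lower and 8 higher. The 5 genes lower with G6 than with DC101 at day 5 and the 7 lower at untreated day 60 against day 20 were 5 and 7 in all alternatives run. With G6 against untreated sites at day 20 (6 lower), 1 was called with only the groups compared in the fit, 4 with adjacent arrays averaged, 5 with the 3'/5' ratios as covariates, and 2 to 6 when named arrays were left out. With G6 against untreated sites at day 60 (1 lower), 2 were called with a pseudocount of 1 and 0 with a pseudocount of 64, with only the groups compared, with adjacent arrays averaged and with the 3'/5' ratios of Actb and Gapdh as covariates; leaving out arrays gave 0 to 2. Array weights called 1 gene higher with DC101 against untreated sites at day 60 (0 otherwise), 1 lower between G6 and DC101 at day 20 (0) and 4 at day 60 (2), where the covariates gave 0 and leaving out arrays gave 3, with Fam167b added. With G6 at day 20 against day 5 (2 lower, 2 higher), 1 was lower with only the groups compared, 1 with adjacent arrays averaged, 0 with the covariates and 1 to 2 without named arrays, and 1 was higher with adjacent arrays averaged. With DC101 at day 60 against day 20 (7 lower), 4 were called with adjacent arrays averaged and 4 with the covariates. For the G6 interaction (0 higher), 1 was called with a pseudocount of 64, 1 with array weights and 0 to 1 without named arrays. For the DC101 interaction (3 higher), 0 were called with adjacent arrays averaged, 0 with the covariates and 0 to 3 without named arrays. The causes were not tested, except that averaging and leaving out arrays leave fewer samples.

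Over all probe sets, the count called also varied, mostly by more than 1.5 times. Among alternatives that tested the same 26696 probe sets, it was 2105 for G6 against untreated at day 20 (75 to 4357 over the alternatives), 1704 for DC101 (195 to 2137), 2809 and 3310 at day 60 (64 to 3267 and 382 to 7537), 6048 for untreated day 60 against day 20 (3023 to 7340), and 3695, 99 and 10109 for G6 against DC101 at days 5, 20 and 60 (2263 to 4811, 0 to 1021 and 0 to 12991). Within G6 it was 5324 and 5224 (1472 to 6534 and 642 to 7339) and within DC101 5373 and 2836 (3720 to 6027 and 1026 to 7510), for day 20 against day 5 and day 60 against day 20. The interactions gave 23 for G6 (0 to 280) and 4593 for DC101 (955 to 8311). When all 10 group means were used, the most similar gene changed for every gene but Kcne3, which kept Fscn1. Esm1, Fam167b, Sox11 and Nts then shared none of their 3 most similar genes with the main setting. Enho had r = 0.82 with Sox11 there. No paired analysis was possible because the running numbers in the titles are not shared between groups. The number of arrays and low signal limit the precision at day 60 and in control flank.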
